A study of Mus musculus with 3 samples.

Results

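The replication-dependent histone genes of the mouse are concentrated in a large cluster on chromosome 13, which falls into separated sections, and a smaller one on chromosome 3. The Cbx2 peaks in these clusters were taken from a table of 2217 peaks (mm9 coordinates) as those overlapping any of 3 windows, 21.70 to 22.20 Mb and 23.45 to 23.90 Mb on chromosome 13 and 96.00 to 96.20 Mb on chromosome 3. This gave 39 peaks, of which 12, 17 and 10 lay in the windows in that order. The windows were chosen from the measured ratios of the same libraries, so the direction of the ratios inside them is a description and was not tested. Cbx2 had been profiled by chromatin immunoprecipitation and sequencing (ChIP-seq) in C3H10T1/2 cells, a mesenchymal progenitor line derived from C3H mouse embryos. One library came from cells stably expressing wild-type histone H3.3 with a FLAG-HA tag (WT). The other is titled as coming from cells expressing H3.3 in which methionine takes the place of lysine 36 (K36M), although its genotype field names wild-type H3.3. An input library was not analysed here. The labels do not say whether each line is 1 clone or a pool, and the table holds no expression values against which the cell type could be checked. Each group was 1 ChIP library, so no value has a replicate error, and no p-value is given.

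Replication-dependent histone genes are expressed in S phase, lack introns, and give messenger RNAs that end in a stem-loop in place of a poly(A) tail. They supply the linker histone H1 and the core histones H2A, H2B, H3 and H4 that package newly copied DNA, and their clusters gather in the nucleus in the histone locus body, with the coactivator NPAT. H3.3, the histone mutated here, is a replacement variant encoded elsewhere by genes that are active throughout the cell cycle. Cbx2 is a subunit of Polycomb repressive complex 1 that binds histone H3 trimethylated at lysine 27, a mark of silent developmental genes, and the K36M substitution blocks enzymes that methylate lysine 36 of H3. The comparison addressed where Cbx2 lies on the genome with either form of H3.3.

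Histone genes were picked from the RefSeq gene table (GRCm38.p6) by the current or older symbols of the replication-dependent families. Histone genes with other names were not counted. This gave 67 genes on these chromosomes, 64 of them protein coding, with 6 for H1, 20 for H2A, 17 for H2B, 12 for H3 and 12 for H4. This includes H4bc24, counted as H2B from its older name Hist1h2br. Because that build is not the one of the peaks, genes are given by order alone and no peak was assigned to a gene. A peak in a window is thus not shown to lie at a histone gene. On chromosome 13 the genes formed an array of 19 from H2bc13 to H4bc24, an array of 5 from H2ac12 to H2bc11, and an array of 30 from H4c8 to H1f1. The first and the second array were separated by 39 other genes, of which 31 encode transfer RNAs, and the second and the third by 147, of which 75 belong to the Vmn vomeronasal receptor family. A further pair, H2bc1 and H2ac1, known as testis variants, followed 8 genes after H1f1, and the pseudogene H2af-ps2 lay 491 genes beyond that pair. The chromosome 3 array ran over 10 genes from H2ac21 to H2bc18. An H2A gene stood directly beside an H2B gene in 15 pairs, and where the strand of both was at hand they were divergent in 10 of 11 pairs, an arrangement in which both genes share the DNA between them as a promoter.

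The promoters of these genes are shown to make clear what kind of sequence the clusters repeat. A promoter was at hand for 59 of the 67 genes (60 promoters of 300 bases, from 250 before to 50 after the start). For each histone type, the first promoter in order that held TATAAA on its own strand and CCAAT on either strand in the 120 bases before the start is printed over those bases, for H2B with the octamer and for H4 with GGTCC as well, 5′ to 3′ on the gene's own strand. Capitals mark TATAAA on the gene's strand, CCAAT or its reverse complement ATTGG, the octamer ATGCAAAT or its reverse complement ATTTGCAT, and, in H4 alone, GGTCC. Sequences are from RefSeq, GRCm38.p6. H2ac21 lies on chromosome 3 and the others on chromosome 13, H1f5 on the minus strand and the other 4 on the plus strand.
H1f5 (H1): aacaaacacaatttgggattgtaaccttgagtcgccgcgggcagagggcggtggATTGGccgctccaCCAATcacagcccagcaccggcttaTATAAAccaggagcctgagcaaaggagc
H2ac21 (H2A): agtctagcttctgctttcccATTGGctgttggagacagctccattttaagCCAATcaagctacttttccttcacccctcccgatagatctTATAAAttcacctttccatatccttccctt
H2bc3 (H2B): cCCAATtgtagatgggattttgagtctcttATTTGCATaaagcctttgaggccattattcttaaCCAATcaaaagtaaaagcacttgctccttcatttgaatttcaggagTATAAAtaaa
H3c10 (H3): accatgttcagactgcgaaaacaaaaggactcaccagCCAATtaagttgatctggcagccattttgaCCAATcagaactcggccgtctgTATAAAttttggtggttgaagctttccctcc
H4c4 (H4): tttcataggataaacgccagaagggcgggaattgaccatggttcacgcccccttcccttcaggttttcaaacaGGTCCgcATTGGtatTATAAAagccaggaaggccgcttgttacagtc

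Searched on both strands over the 300 bases, CCAAT was present in every promoter at hand of H1 (6), H2A (17), H2B (16) and H3 (10) but in 3 of 11 of H4, against 37.4% of all 32851 promoters in the table. The octamer ATGCAAAT, a site of Oct-family factors known from H2B promoters, was found in 7 of 16 H2B and 6 of 17 H2A promoters and in none of H1, H3 or H4, against 1.74% of all promoters. GGTCC was found in 10 of 11 H4 promoters, against 26 of 60 over all histone types and 45.5% of all promoters, so across types it was no more common than elsewhere. TATAAA, the core of the TATA box, was held on either strand by 34 of 60 histone promoters and 13.6% of all promoters. On the gene's own strand before the start it was held by 23 of the 60. The copy nearest the start began 20 to 40 bases before it in 11 of the 60 (18.3%), against 1.99% of all promoters. In the printed promoters it began 28 (H1f5), 30 (H2ac21), 31 (H3c10) and 32 (H4c4) bases before the start, but 10 bases before it in H2bc3. Promoters of a divergent pair can overlap, so these counts are not independent, and a match is a string of letters and not a measured binding site.

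Inside the windows, 32 of the 39 peaks had more Cbx2 signal in K36M than in WT, in reads per 1000000 library reads (RPM). The median log2 of K36M over WT was 0.37 (0.30 to 0.45, a 95% binomial interval from the order of the peaks). That interval treats neighbouring peaks as independent, which they are not, and it holds no replicate error. Over all 2217 peaks 4.60% were higher in K36M. The 95% exact interval of the ratio, which covers counting error only, lay above 1 at 31 of the 39 peaks and at 2.75% of all peaks. Only 5 of the 39 were at least 2-fold lower in K36M, against 75.3% of all peaks. Since the windows were chosen on this contrast, these counts describe the choice. Every one of the 2217 peaks held at least 9.5 reads per 200 bp in WT, while the lowest in K36M was 1. Whether the peaks were called on WT signal is not stated, so the shares over all peaks may not be a neutral reference. Among the 134 other peaks of chromosomes 13 and 3, 3 were higher and the median log2 ratio was -1.54. K36M was also scaled so that all peaks together had the median, the upper quartile or the sum of WT. Under each, 35 of the 39 were higher, and over all peaks 48.7%, 47.7% and 33.7% were then higher. The scaling itself largely sets these shares over all peaks, so they are not an independent reference.

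The 39 peaks took up a small part of the table but a larger part of its reads, more so in K36M. They made up 1.76% of the peaks and 2.50% of the covered length. They held 4.60% of the reads in peaks in WT (95% Wilson interval 4.54 to 4.66%) and 13.5% in K36M (13.4 to 13.7%). Measured against the whole libraries, which held 29278813 reads in WT and 36243012 in K36M, their share was 0.0751% (0.0741 to 0.0761%) in WT and 0.0913% (0.0903 to 0.0923%) in K36M. The difference was thus larger as a share of peak reads than as a share of the library, where the summed K36M/WT ratio was 1.22 (1.20 to 1.24). The other peaks of the 2 chromosomes had a summed ratio of 0.341 (0.334 to 0.349).

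The windows were not uniform. Splitting them wherever more than 50 kb lay between neighbouring peaks, a rule set after the values were seen, gave 7 groups. On chromosome 13 they held 10 peaks from 21806800 to 21927399, 2 peaks from 22125800 to 22136799, 2 peaks from 23486400 to 23504799, 8 peaks from 23622200 to 23714599 and 7 peaks from 23774000 to 23857199. On chromosome 3 they held 6 peaks from 96022200 to 96078799 and 4 peaks from 96133000 to 96197999. The gaps between them were 198.4, 117.4, 59.4 and 54.2 kb, beside the long stretch between the chromosome 13 windows. In 5 groups all peaks but 1 were higher in K36M, while the group at 23486400 and the group at 96133000 were lower throughout, as the map of density by distance shows.

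**Figure D1:**
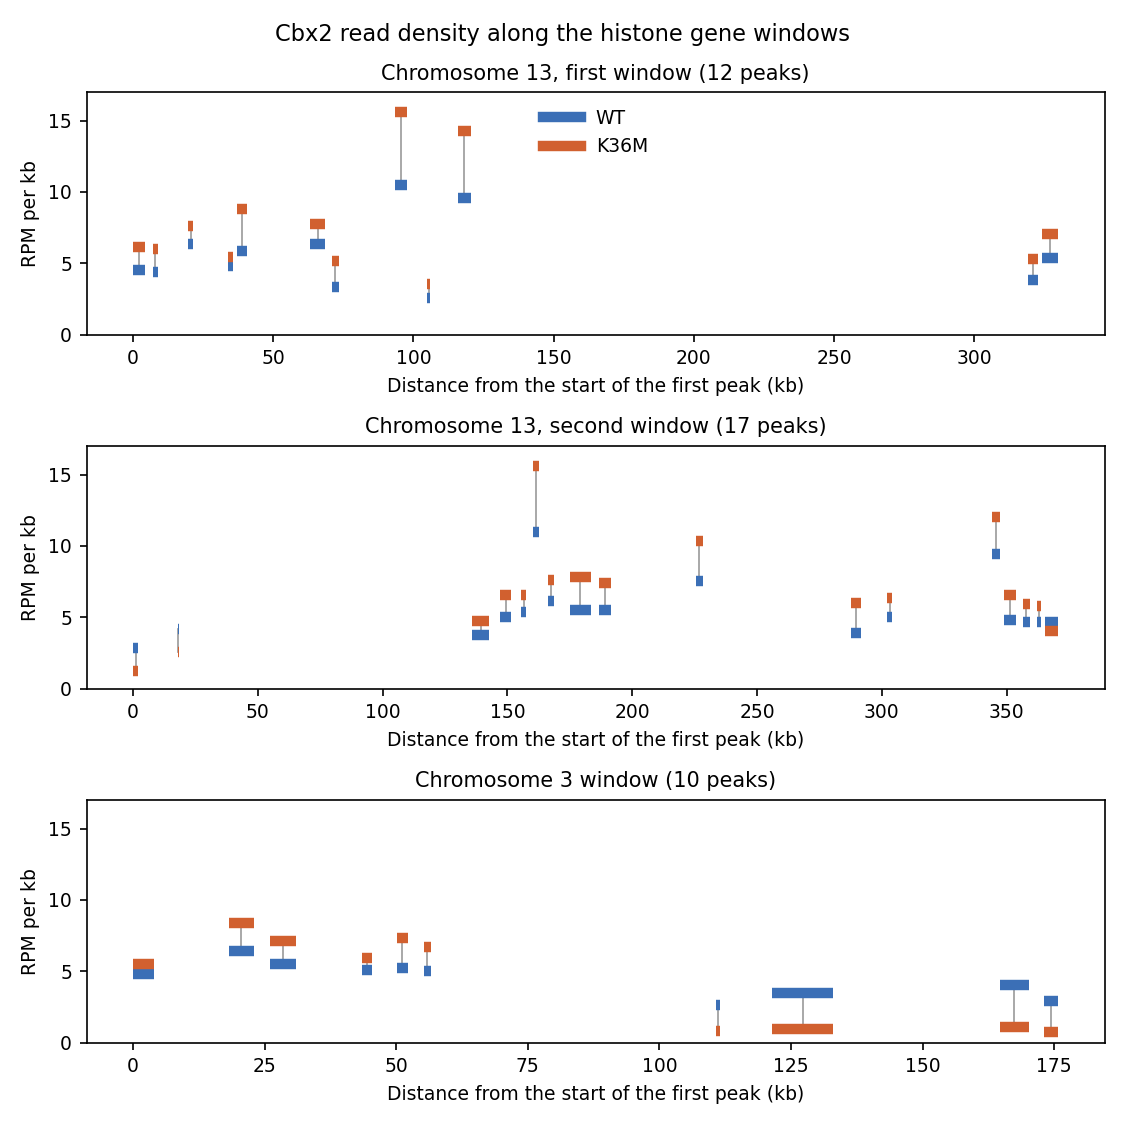
Cbx2 read density (RPM per kb of peak, linear axis) along each of the 3 windows, against the distance in kb from the start of the first peak. Each horizontal bar spans 1 peak, blue for WT and orange for K36M, and grey lines join the bars of a peak. Orange lies above blue in 32 of 39 peaks, and the lower ones stand at the start and the very end of the second window and at the right of the chromosome 3 window.

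In the group of 10 peaks at the start of the first window the sums were 5899 WT reads and 10186 K36M reads, and the ratio was 1.39 (95% exact interval 1.35 to 1.44). The strongest was the 4800 bp peak at chr13:21922600-21927399, which held 1350 WT reads (46.1 RPM) and 2478 K36M reads (68.4 RPM). It ranked 29 of all peaks by RPM in WT and 4 in K36M. The peak at chr13:21900400-21904399, with 1 short peak between them, had 42.1 and 62.4 RPM, a ratio of 1.48 (1.38 to 1.59), and was the densest of all 2217 peaks in K36M at 15.6 RPM per kb, and the sixth in WT at 10.5 RPM per kb. The peak at chr13:21870000-21875399 went from 34.3 to 41.9 RPM, a smaller ratio of 1.22 (1.13 to 1.32). The highest ratio of all members belonged to the 2600 bp peak at chr13:21877600-21880199, 2.2 kb further on, where 254 WT reads stood against 486 K36M reads and the ratio was 1.55 (1.33 to 1.81). The intervals of these neighbours came close but did not meet. The lowest ratio of the group was 1.13 (0.960 to 1.33) at chr13:21840800-21842599, the only higher member whose interval included 1, while the peak 1.4 kb beyond it, chr13:21844000-21847599, had 617 and 1145 reads, a ratio of 1.499 (1.36 to 1.66), so these intervals did not meet either.

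After a stretch of 198.4 kb with no listed peak, the pair at the end of the first window had ratios of 1.37 (1.21 to 1.56) and 1.32 (1.22 to 1.44). The larger, chr13:22131000-22136799, went from 31.1 to 41.1 RPM. Both lay within the range of the first group, although they stand far from it. Peaks covered 85.5% of the 11.0 kb that this pair spans, and 25.7% of the 120.6 kb of the first group.

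The second window opened with the 2 lower peaks. The peak at chr13:23486400-23488599 went from 6.32 to 2.68 RPM (185 and 97 reads), a ratio of 0.424 (0.328 to 0.544). The 400 bp peak at chr13:23504400-23504799, the shortest member, had 49 and 37 reads, a ratio of 0.610 (0.387 to 0.954). By point values, both are lower on the RPM scale only. Scaled to the same median over all peaks, their log2 ratios were 0.29 and 0.78 in place of -1.21 and -0.66. No interval was computed under that scaling. The next peak, 117.4 kb further on, was higher.

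The 8 peaks from 23622200 had a summed ratio of 1.34 (1.30 to 1.39) and the narrowest spread of the larger groups, with log2 ratios from 0.30 to 0.50 (SD over peaks 0.078). The peak at chr13:23661400-23669799 was the longest of the higher members, at 8400 bp, and had the most reads of any member in WT, 46.6 RPM, and 65.5 RPM in K36M. By density the group was led by chr13:23646800-23649199, which had 11.0 RPM per kb in WT, the fourth densest of all peaks there, and 15.6 in K36M, the second densest, with a ratio of 1.42 (1.30 to 1.55). The lowest density in the group, at chr13:23622200-23629199, was 3.74 RPM per kb in WT and 4.78 in K36M. Density in WT thus ran from 3.74 to 11.0 RPM per kb among these peaks while the K36M/WT ratio ran from 1.23 to 1.42.

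The last 7 peaks of the second window had a summed ratio of 1.24 (1.19 to 1.29). They began with one of the highest ratios, at chr13:23774000-23778199, where 483 WT reads stood against 910 K36M reads and the ratio was 1.52 (1.36 to 1.70). They ended with the single lower peak among the higher groups, chr13:23852000-23857199, where 24.4 RPM in WT stood against 21.2 RPM in K36M and the ratio was 0.869 (0.784 to 0.964). The direction of that peak turns with the scaling, since all 3 scalings multiply K36M by 2.42 or more. The peak 1.8 kb before it, chr13:23848600-23850199, had a ratio of 1.24 (1.04 to 1.47), so the intervals of these neighbours did not meet.

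On chromosome 3 the peaks on either side of a gap differed in direction. The 6 peaks up to 96078799 had 3052 reads in WT and 4802 in K36M, with ratios from 1.14 (1.03 to 1.28) at chr3:96022200-96026199 to 1.40 (1.22 to 1.62) at chr3:96072400-96074399. The strongest, chr3:96040400-96045199, went from 30.8 to 40.1 RPM. Beyond the gap of 54.2 kb, the 4 peaks from 96133000 had 2145 and 739 reads, a summed ratio of 0.278 (0.256 to 0.303). The 11600 bp peak at chr3:96143600-96155199, the longest member, went from 40.2 to 11.4 RPM. Its total WT signal was higher than that of any of the 6 peaks on the other side of the gap, all of them shorter. Per kb its WT signal was lower, at 3.47 RPM per kb against 4.80 to 6.42 for those 6. The peaks at chr3:96186800-96192399 and chr3:96195200-96197999 had the lowest ratios of all members, 0.272 (0.232 to 0.317) and 0.267 (0.204 to 0.346), and the 800 bp peak at chr3:96133000-96133799 had 62 and 24 reads, a ratio of 0.313 (0.187 to 0.508). By point values these 4 stayed lower under each of the scalings, with log2 ratios between -0.62 and -0.14. No interval was computed under the scalings, and at 96133000, with few reads, the direction there is uncertain. Because both groups share the window, its summed ratio of 0.861 (0.829 to 0.895) describes neither, and the first and second chromosome 13 windows had 1.38 (1.34 to 1.43) and 1.28 (1.25 to 1.32).

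**Figure D2:**
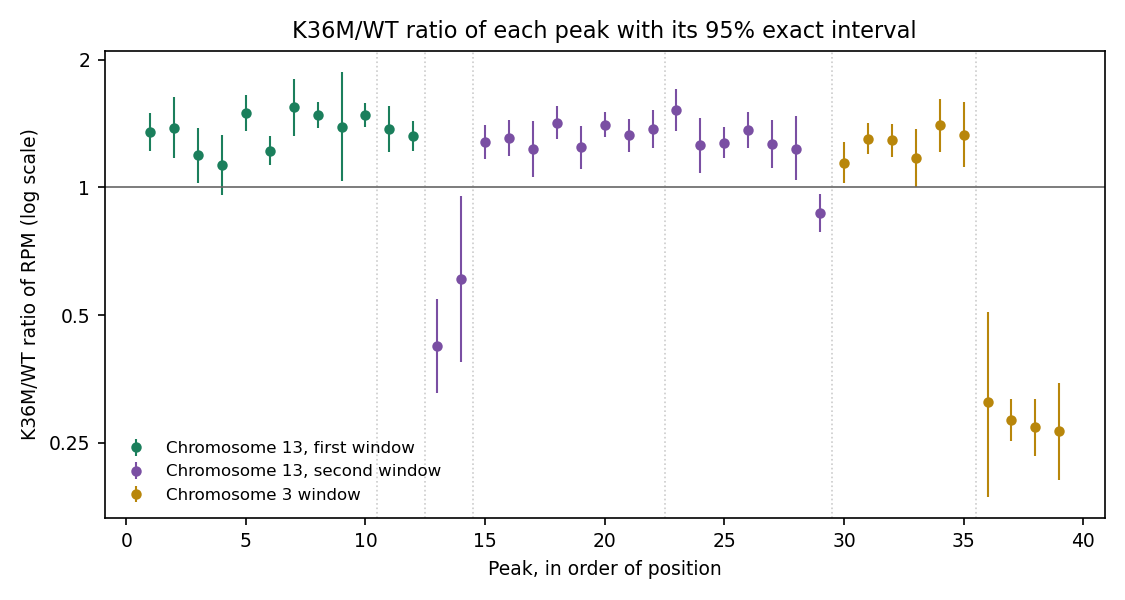
K36M/WT ratio of RPM for each of the 39 peaks in order of position, on a log axis, with 95% exact intervals that cover counting error only. Colours give the window, dotted lines the gaps of more than 50 kb or the change of window, and the horizontal line a ratio of 1. Points 13, 14, 29 and 36 to 39 lie below 1, and the other 32 lie between 1.13 and 1.55.

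Reads were denser in most of the window peaks than in most other peaks of their chromosomes in both libraries. In WT the 39 peaks had a median of 29.4 reads per 200 bp (quartiles 24.1 and 33.4) against 13.3 (12.4 and 15.0) for the 134 other peaks of chromosomes 13 and 3. In K36M the medians were 45.9 (37.8 and 55.3) and 5.54 (4.41 and 7.00). Corrected for library size, these are 5.03 and 2.27 RPM per kb in WT and 6.33 and 0.765 RPM per kb in K36M. The ranges overlapped: members ran from 15.0 to 64.2 reads per 200 bp in WT, and the other peaks from 11.0 to 26.9. In K36M the 33 members of the 5 mostly higher groups ran from 25.8 to 113.05 reads per 200 bp, and the 134 other peaks from 1.11 to 38.0. The 6 members of the lower groups had a median of 7.55 and a highest value of 18.5. That median is far below the 33 but above the upper quartile of 7.00 of the other peaks. The groups were told apart by the K36M/WT ratio, so their difference in K36M density follows in part from the split. Among the 50 densest peaks of the whole table, 10 were members in WT and 26 in K36M, which is 25.6% and 66.7% of the members. Input reads over these peaks were not analysed here, so how much of this density the antibody contributes was not tested.

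**Figure D3:**
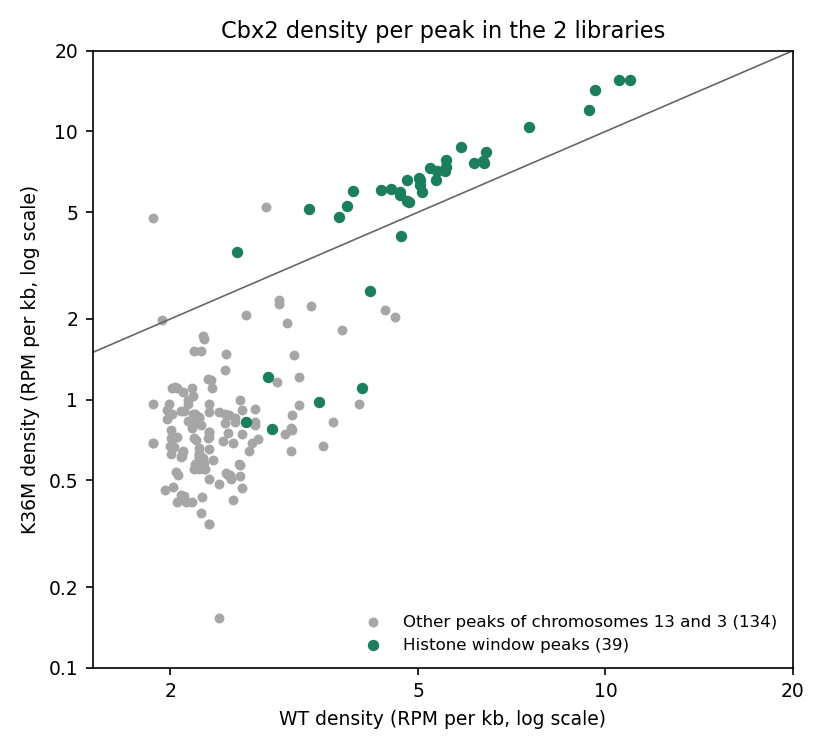
Cbx2 density in K36M against WT for each peak, in RPM per kb on log axes, with the 39 histone window peaks in green and the 134 other peaks of chromosomes 13 and 3 in grey. The line marks equal density. Most green points form a band just above the line, while 6 lie among or near the grey points and 1 lies just below the line.

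Dense peaks outside the windows were more often higher in K36M than other peaks were, but most of them were lower. Of the 20 members at or above their own median WT density of 29.4 reads per 200 bp, all 20 were higher in K36M. No other peak of chromosomes 13 and 3 reached that density. Elsewhere in the genome 48 peaks did, and 9 of them were higher, with a median log2 ratio of -0.58 and a range from -2.76 to 0.74. Over all 2178 peaks outside the windows, 70 (3.21%) were higher and the median was -1.45. The K36M density of those 48 peaks had a median of 25.1 reads per 200 bp, against 6.0 for all 2178. All 39 members lay at or above 15.0 reads per 200 bp in WT. So did 718 other peaks of the genome, of which 36 were higher and whose median log2 ratio was -1.54, and among them 34 on the 2 chromosomes, of which 1 was higher. Across all 39 members, WT and K36M density had a Pearson r of 0.81 on log scales, and across the 134 other peaks r was 0.30. Across the 33 members of the mostly higher groups it was 0.95. WT density spanned less in the other peaks (11.0 to 26.9 reads per 200 bp) than in the members (15.0 to 64.2). The values of r are therefore not directly comparable. Peaks of a set share their libraries, neighbours are not independent, and the windows were chosen on the ratio of these densities, so these are descriptions.

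The peaks of the windows were long and closely packed. Their median length was 3400 bp (quartiles 1900 and 4800 bp, range 400 to 11600 bp), against 1700 bp (800 and 4000 bp) for the other peaks of the 2 chromosomes, so the ranges overlapped widely. Within the windows the median gap between neighbours was 6.8 kb (1.4 to 198.4 kb over 36 gaps). For the other peaks of these chromosomes it was 498.0 kb. The width of the windows limits the gaps inside them. Together the 39 peaks covered 140.6 kb. Of 43 other peaks of the 2 chromosomes at least as long as the median member, none was higher in K36M, and their median log2 ratio was -1.60. Over the genome 531 other peaks were that long, and 15 of them were higher.

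Just outside the windows the peaks were few and weak. On chromosome 13 the nearest listed peak below the first window was 6457 kb away, at chr13:15242200-15242799, with 44 WT and 11 K36M reads. Above the second window, the peak at chr13:23986400-23986999, 86.4 kb beyond the edge, had 35 and 21 reads, a ratio of 0.485 (0.268 to 0.856). On chromosome 3 the nearest peak below the window, chr3:94700000-94701199, had 77 and 37 reads, and the nearest above it, chr3:96290000-96290399, had 35 and 33 reads, a ratio of 0.762 (0.459 to 1.26). Just inside the edges lay the peaks at 21806800 (583 WT and 976 K36M reads), 22131000, 23486400, 23852000, 96022200 (562 WT, 796 K36M) and 96195200 (239 WT, 79 K36M). The nearest peak past an edge that was higher in K36M was the 600 bp peak at chr3:96365800-96366399, with 50 and 114 reads, a ratio of 1.84 (1.31 to 2.62). The remaining higher peaks on these chromosomes were chr3:11476600-11476999 (22 WT, 69 K36M) and chr13:51298000-51298599 (34 WT, 43 K36M), whose interval of 0.636 to 1.65 included 1.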

How the data were processed

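One deposited table of peaks was used. Reads were aligned with Bowtie 1.0.0 to mm9, per the submitters' processing notes. For the peak caller, any use of the input and the treatment of duplicate or multiply mapping reads, nothing is stated in the labels or the header. Genes for the same core histone can be close copies in their coding sequence, so where reads from such copies were placed is uncertain. The deposited values are headed RPKM but are reads per 1000000 library reads (RPM). For both columns, 100% of values were whole multiples of 1 step, within 1e-06 of a read, whatever the peak length. Reads and library sizes were recovered from that step, taken as 1 read. The WT column was taken as the Cbx2 ChIP library because the table is named for Cbx2. The log2 ratio used a pseudocount of 0.1 RPM, and ratios printed without log carry none. Lengths count both end positions. Intervals are 95% exact (Clopper-Pearson) for ratios and Wilson for shares. Since PCR copies of a molecule carry no identifier here, intervals cover counting error only. Motif counts used RefSeq promoters of GRCm38.p6. Named peaks were the 5 with the most reads in each library, the 5 lowest and 5 highest log2 ratios, the longest, the shortest and those at the window edges. Others were picked after their values were seen. Windows, lists and tests were chosen with earlier results of these data known. Calculations (Python 3.11.15, pandas 2.3.3, numpy 2.4.6, scipy 1.17.1) were tested on simulated reads.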

Additional observations from a re-analysis of the deposited data

How the results depend on the processing

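No paired analysis was possible because WT and K36M are 1 library each, and for the same reason no replicate could be left out. Scaling the libraries to the same median, sum or upper quartile over all peaks multiplied K36M by 2.89, 2.42 and 2.85. The median log2 ratio of the 39 peaks became 1.90, 1.64 and 1.88, and the summed ratios became 4.00, 3.35 and 3.94 (first chromosome 13 window), 3.70, 3.10 and 3.65 (second) and 2.49, 2.08 and 2.45 (chromosome 3). In that order the log2 ratio turned to 0.29, 0.035 and 0.27 at 23486400 and to 0.78, 0.54 and 0.76 at 23504400. These scalings also multiply reads outside peaks. From summed reads the log2 ratio was 0.28. The count of higher peaks was 20 without the first and 18 without the second chromosome 13 window. Those windows held 12 peaks, of which 12 were higher, and 17 peaks, of which 14 were higher. Leaving out peaks under the median of mean RPM moved the share of peak reads to 5.21% (WT) and 15.3% (K36M), and narrowing the windows by 50 kb to 3.91% and 12.1%. Of the other alternatives for these summary values, 37 stayed within the interval, used only as a yardstick, or within 1.5 times the main count. Depth limits the weakest members most, the smallest having 49 reads in WT and 24 in K36M.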

Other observations

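Across all members, signal followed peak length less tightly than elsewhere on their chromosomes, but in K36M this was not so within the mostly higher groups. Across the 39 members, the Pearson r of log RPM with log length was 0.91 for WT and 0.72 for K36M, and across the 134 other peaks of chromosomes 13 and 3 these were 0.98 and 0.88. Across the 33 members of the mostly higher groups they were 0.88 for WT and 0.87 for K36M. The RPM of a peak is its density multiplied by its length, so r also reflects how much density varies within a set. Across all 39, Pearson's r of log WT density with the log K36M/WT ratio was 0.52, and by ranks (Spearman) it was 0.32. Across the 33 members of the mostly higher groups alone, these were 0.09 and 0.018. Those groups were told apart by this ratio, and WT density is its denominator, so these values depend on the split. The peaks at 21900400 and 21922600, with 61.6 and 56.25 WT reads per 200 bp, were among the 5 members with the highest ratios. These values are across peaks of single libraries, which are not independent, and the difference between the sets was not tested.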
